A study of Mus musculus with 24 samples.

Results

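Macrophages that had received dexamethasone and lipopolysaccharide (LPS) together for 24 h were compared with untreated macrophages of the same time, gene by gene, to see which genes lay at the untreated level and which lay away from it. The comparison uses 6 of the 24 libraries of the series, 3 with both treatments and 3 without treatment, as the labels assign them. Of the 55357 genes in the count table, 14985 had enough counts to be tested.

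LPS, a component of the outer membrane of Gram-negative bacteria, is sensed through Toll-like receptor 4 and switches on the transcription factors NF-kB and AP-1, and through interferon beta also the STAT and IRF factors, so that macrophages release cytokines, chemokines and antimicrobial proteins. Dexamethasone is a synthetic glucocorticoid. It binds the glucocorticoid receptor, which enters the nucleus, raises genes such as Fkbp5 and Tsc22d3 and restrains many genes driven by NF-kB and AP-1. Activated macrophages also change their metabolism, with more glycolysis and with the citrate cycle diverted towards itaconate.

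All cells were macrophages grown from bone marrow. The mice were wild-type C57BL/6J, 8 to 12 weeks old, and the cells were kept in medium with L929 supernatant as a source of M-CSF. The groups used here are untreated cells, cells given 100 nM dexamethasone, cells given 100 ng LPS, for which the labels name no volume, and cells given both, each for 4 h or 24 h, with 3 libraries per group. The series design asks how the action of glucocorticoids under LPS depends on time. Separate mice or cultures are not named for the 3 libraries of a group, so each p-value measures the spread between libraries only, which may be technical.

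The 6 libraries hold 18951567 to 22744879 counts each. Levels are given in CPM, counts scaled to a common library total with TMM factors, as the mean ± SD of 3 libraries, and log2 fold changes with their standard error (SE). Adjusted p-values are those of the quasi-likelihood F test in edgeR, with the Benjamini-Hochberg method over all 14985 genes. The defining macrophage markers Adgre1, Csf1r, Lyz2 and Spi1 were detected in all 6 libraries, Csf1r at 2540 to 2830 CPM in untreated cells and 3070 to 3130 CPM with both treatments. The summed level of 11 macrophage markers was 22800 to 25100 CPM in untreated cells and 42800 to 43800 CPM with both, most of it Lyz2. Of the other cell types looked for, neutrophil markers summed to 105 to 109 CPM and 230 to 255 CPM, with Ly6g at 0 and 1 counts in the group totals. Lymphocyte markers went from 27.1 to 30.2 CPM down to 3.98 to 5.87 CPM, with Cd4 at 23.6 to 26.8 and 2.12 to 2.25 CPM, and mast cell markers from 10.6 to 11.6 CPM down to 0.26 to 0.367 CPM, with Kit at 9.64 to 10.7 and 0 to 0.208 CPM. Dendritic cell markers summed to 3.29 to 3.9 CPM and 1.29 to 1.71 CPM, stromal and endothelial markers to 15.5 to 23.3 CPM and 7.58 to 9.16 CPM, and no erythroid marker passed the filter. Of the stromal and endothelial markers Kdr fell, from 14 to 21.4 CPM down to 1.09 to 1.35 CPM, while Dcn and Pdgfrb rose, from 0 to 75 and from 25 to 281 counts. The part of these markers in the results was not tested. In these bulk samples fewer cells of a type and less RNA per cell cannot be told apart.

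Cells with both treatments lay with LPS-treated cells, not with untreated cells, on the main axis of variation at 24 h. The first principal component of the 12 libraries of 24 h held 58% of the variance and placed untreated libraries at -78.67 to -75.47, those with dexamethasone alone at -62.37 to -59.08, those with both at 60 to 62.92 and those with LPS alone at 76.82 to 78.27. The second component held 22.2% and separated libraries with dexamethasone from those without it.

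**Figure D1:**
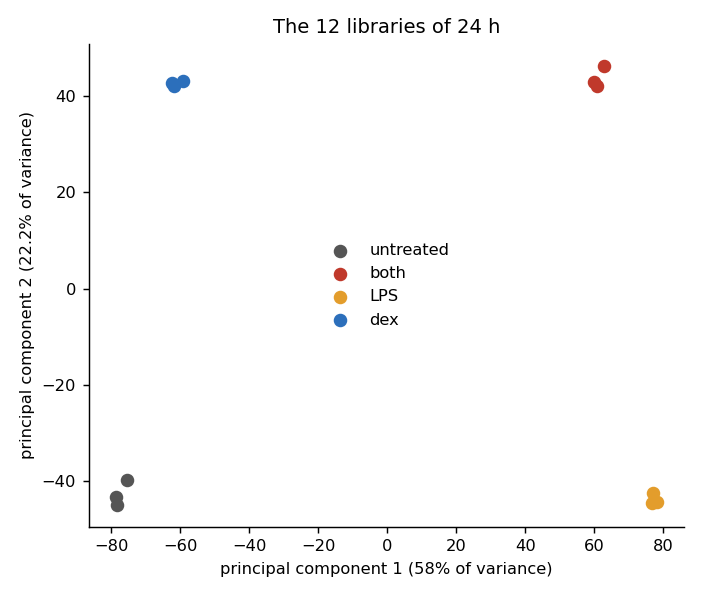
Principal components of the 12 libraries of 24 h (x axis, component 1 with 58% of the variance; y axis, component 2 with 22.2%), 1 point per library, coloured by treatment. The 3 libraries of each group lie together, and the 4 groups take the 4 corners.

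Both treatments together left 8855 of 14985 genes (59.1%) different from untreated cells at 24 h, 4317 higher (28.8%) and 4538 lower (30.3%). Of these, 1522 genes (10.2%) were at least 2-fold higher and 1958 (13.1%) at least 2-fold lower, and these are called away from baseline. A gene is called back at baseline only where an equivalence test placed it within 1.5-fold of the untreated level, which held for 5231 genes (34.9%). A gene with a small but precise difference can pass both tests. The remaining 3191 genes (21.3%) passed neither test and are called undecided. The libraries of the 2 groups did not overlap for 10180 genes (67.9%). Of all calls 48.8% were higher, a share that fell to 34.6% when libraries were scaled by their totals only, which moves the median log2 fold change of all genes by -0.17.

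**Figure D2:**
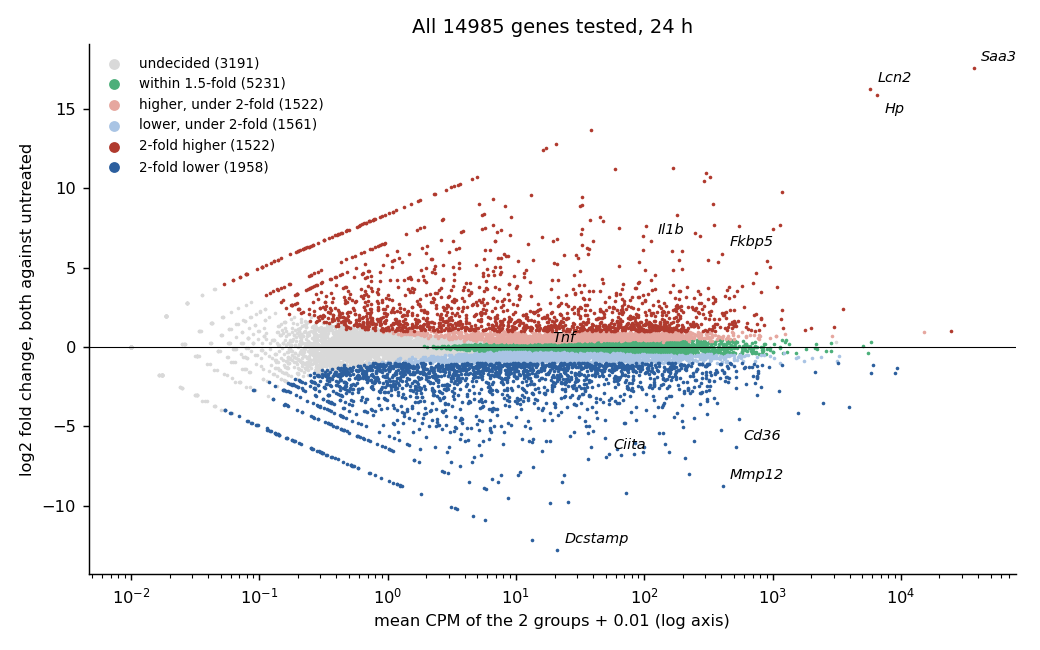
Log2 fold change of both treatments against untreated cells at 24 h (y axis) against the mean CPM of the 2 groups on a log axis (x axis), 1 point per gene tested, coloured by call. Genes at least 2-fold away lie at all levels of expression, and the oblique rows at the left are genes with no or very few counts in 1 group, whose fitted fold is no measure of size.

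Acute phase and antimicrobial proteins, which macrophages and liver secrete during infection, had the highest median of the gene lists examined. Saa3, a serum amyloid A protein, stood at 0.77, 0.274 and 0.0896 CPM in the 3 untreated libraries and at 76700, 73150 and 72300 CPM with both treatments. LPS alone gave 58390 ± 2846 CPM and dexamethasone alone 134 ± 17.9 CPM (log2 fold change with both 17.58 ± 0.56, adjusted p = 6.13e-20). Lcn2, the iron-siderophore binding lipocalin, went from 0.142 ± 0.0474 to 11500 ± 793 CPM, with 1353 ± 41.8 CPM under LPS alone. Hp, the haemoglobin-binding haptoglobin, went from 0.217 ± 0.123 to 13090 ± 1299 CPM, with 1652 ± 80.5 CPM under LPS alone and 165 ± 19.9 CPM under dexamethasone alone. No library of the untreated group came near any library with both treatments for these genes.

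Of the 17 genes of this list that were tested, 15 rose with both treatments and none fell, with a median log2 fold change of 7.27, where the median of all genes was 0. The same median was 4.92 with LPS alone and 0.82 with dexamethasone alone. Cp, the copper-carrying ferroxidase ceruloplasmin, reached 2269 ± 134 CPM from 10.9 ± 2.56, and Ptx3, a soluble pattern recognition molecule, 65 ± 6.89 CPM from 0.0782 ± 0.136, with 0.995 ± 0.363 CPM under LPS alone. Saa1 was without a count in the untreated group and stood at 41.2 ± 6.99 CPM with both, at least 960-fold higher against a floor of 3 counts over the group. Saa1 and Saa2 are near-identical, and since reads matching several places were not counted their levels are uncertain. S100a8, a calcium-binding protein that neutrophils also make, rose from 0.827 ± 0.31 to 18.6 ± 3.02 CPM, while its partner S100a9 was not called. Of the 12 neutrophil markers tested 4 were higher and 2 lower, beside 28.8% and 30.3% of all genes. The higher ones were S100a8, Mmp8 (499 counts in the untreated group and 4760 with both), Camp (4 and 19 counts) and Csf3r (6717 and 8275 counts), and the lower ones Ltf (15 and 0 counts) and Cxcr2 (18 and 2 counts).

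The largest rises also took in genes outside that list. Marco, a scavenger receptor for bacteria, went from 0.404 ± 0.194 to 586 ± 104 CPM, and Cd38, an enzyme that consumes NAD, from 0.283 ± 0.304 to 609 ± 10.4 CPM. Their levels with LPS alone were 467 ± 21.7 and 799 ± 52.8 CPM. Susd2, a sushi-domain membrane protein, reached 336 ± 29.1 CPM from 0.125 ± 0.0609, with 6.54 ± 1.64 CPM under LPS and 0.126 ± 0.151 CPM under dexamethasone. Ly6c2, a monocyte surface antigen, reached 648 ± 20.8 CPM from 0.383 ± 0.0591, with 100 ± 14.9 CPM under LPS. Cfb, complement factor B, had 3 counts in the untreated group and 6847 with both, a ratio of 2770 (95% interval 947 to 13400, counting error only).

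Inflammatory cytokines did not share 1 fate. Of 18 tested, 10 were higher with both treatments than in untreated cells and 2 were lower (median 1.49, against 2.07 with LPS alone). Among all genes 28.8% were higher and 30.3% lower. Il1b, the cytokine that the inflammasome releases, stood at 2.13, 2.19 and 2.1 CPM in untreated cells and 249, 200 and 219 CPM with both, so it stayed 6.69 ± 0.17 log2 units above baseline (adjusted p = 1.76e-23), with 3195 ± 181 CPM under LPS alone. Il1a, a related cytokine, stood at 16 ± 2.41 CPM against 0.269 ± 0.0432. Il6, which drives the acute phase response in the liver, was at 0 counts in the untreated group and at 6.54 ± 0.817 CPM with both, at least 152-fold higher, with 2.23 ± 0.531 CPM under LPS alone. Tnf, the classical early macrophage cytokine, lay at baseline: 18.4, 15.5 and 18.8 CPM in untreated cells and 15.7, 14.5 and 17.6 CPM with both, in overlapping ranges. Its fold was 0.909 (95% interval 0.803 to 1.03), within 1.5-fold by the equivalence test (adjusted p = 4.05e-05), while LPS alone gave 64 ± 5.24 CPM and dexamethasone alone 1.67 ± 0.295 CPM. Tnf was called lower with both under total-count scaling (log2 fold change -0.30, adjusted p = 0.0027) and without replicate 2 of the untreated group (-0.22, adjusted p = 0.0382). Il15, a growth factor of natural killer cells, fell from 22.6 ± 2.66 to 6.5 ± 1.03 CPM, and Osm, oncostatin M, from 6.98 ± 1.52 to 4.58 ± 0.371 CPM.

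**Figure D3:**
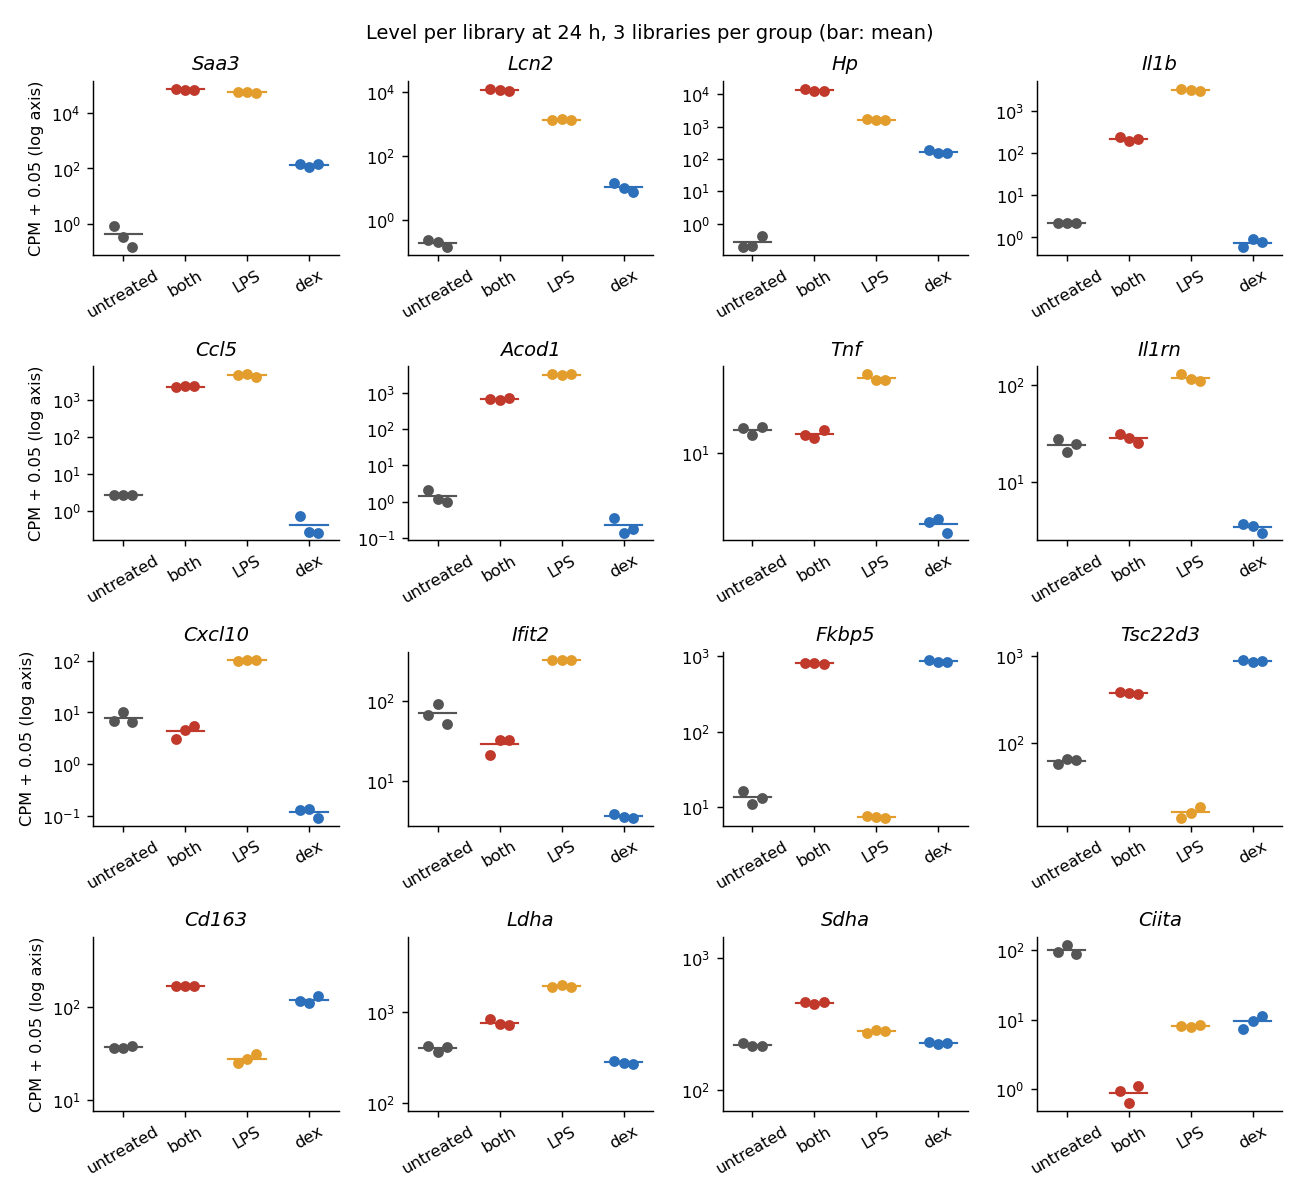
Level of 16 genes in each library at 24 h (y axes, CPM + 0.05 on log axes of different range; x axes, the 4 treatments), 3 points and a bar at the mean per group. Saa3, Lcn2 and Hp lie far above untreated cells with both treatments, Tnf and Il1rn overlap with them, and Cxcl10, Ifit2 and Ciita lie below untreated cells.

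Chemokines split into those above and those below the untreated level. Of 21 tested, 7 were higher and 9 lower with both treatments, 6 and 8 of them at least 2-fold (median -0.11), where the median was 2.46 with LPS alone and -2.15 with dexamethasone alone. Over all genes 28.8% were higher and 30.3% lower, and 10.2% and 13.1% were so by at least 2-fold. Ccl5, which attracts T cells, stood at 2.72, 2.74 and 2.73 CPM in untreated cells and 2299, 2413 and 2379 CPM with both (9.76 ± 0.16, adjusted p = 3.17e-26). Ccl2, which attracts monocytes, fell from 23, 9.9 and 24.2 CPM to 0.524, 1.14 and 0.935 CPM (-4.43 ± 0.60, adjusted p = 4.21e-08), with 29 ± 5.73 CPM under LPS and 1.76 ± 0.534 CPM under dexamethasone. Every library with both treatments lay below every untreated library for Ccl2 and above it for Ccl5. Ccl7, a close relative of Ccl2, fell from 2.87 ± 1.68 to 0.208 ± 0.0522 CPM.

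Genes of NF-kB and its feedback were mostly higher, 15 of 18 higher, 10 of them at least 2-fold, and 3 lower (median 1.19). With scaling by totals 13 were higher and 3 lower. Over all genes 28.8% were higher, 10.2% at least 2-fold higher and 30.3% lower. Tnfaip3, the deubiquitinase A20 that limits NF-kB signalling, stood at 344 ± 14 CPM against 29.4 ± 2.63, with 136 ± 0.198 CPM under LPS and 32.2 ± 5.85 CPM under dexamethasone. Nfkbia, the NF-kB inhibitor, stood at 481 ± 20.4 against 69 ± 0.951 CPM. Of the inflammasome and IL-1 pathway list 10 of 13 were higher and none lower, or 1 lower with scaling by totals (median 1.01). Il1r2, the decoy receptor of IL-1, reached 17.9 ± 3.41 CPM from 0.125 ± 0.0609, with 0.348 ± 0.12 CPM under LPS and 0.174 ± 0.122 CPM under dexamethasone. Among effector enzymes, Acod1, which makes itaconate, stood at 685 ± 37.7 CPM against 1.33 ± 0.584 (LPS alone 3232 ± 85.9). Nos2, the inducible nitric oxide synthase, was at 0 counts in the untreated group and at 2.03 ± 1.16 CPM with both, at least 47.3-fold higher, while LPS alone gave 235 ± 52 CPM. Ptgs2, cyclooxygenase 2, was at 3 ± 0.852 against 0.609 ± 0.171 CPM, and at 95 ± 9.49 CPM with LPS alone.

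The genes that LPS alone raised at least 2-fold at 24 h number 1544 (10.3% of those tested), and their fate with both treatments was counted, with the caution that the LPS comparison shares the untreated libraries. Of the 1544, 924 (59.8%) were still at least 2-fold above untreated with both and 227 (14.7%) were higher by less. At the other end 83 (5.38%) were back within 1.5-fold, 21 (1.36%) were lower by under 2-fold and 29 (1.88%) at least 2-fold lower, while 260 (16.8%) were undecided. Their median log2 fold change was 1.99 with LPS and 1.38 with both. Of the 2099 genes lowered at least 2-fold by LPS alone (14%), 1462 (69.7%) were still at least 2-fold lower with both, 62 (2.95%) back within 1.5-fold and 45 (2.14%) at least 2-fold higher than in untreated cells. Their medians were -2.03 with LPS and -1.55 with both. Among all genes tested 10.2% were at least 2-fold higher with both, 34.9% within 1.5-fold, 13.1% at least 2-fold lower and 21.3% undecided.

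**Figure D4:**
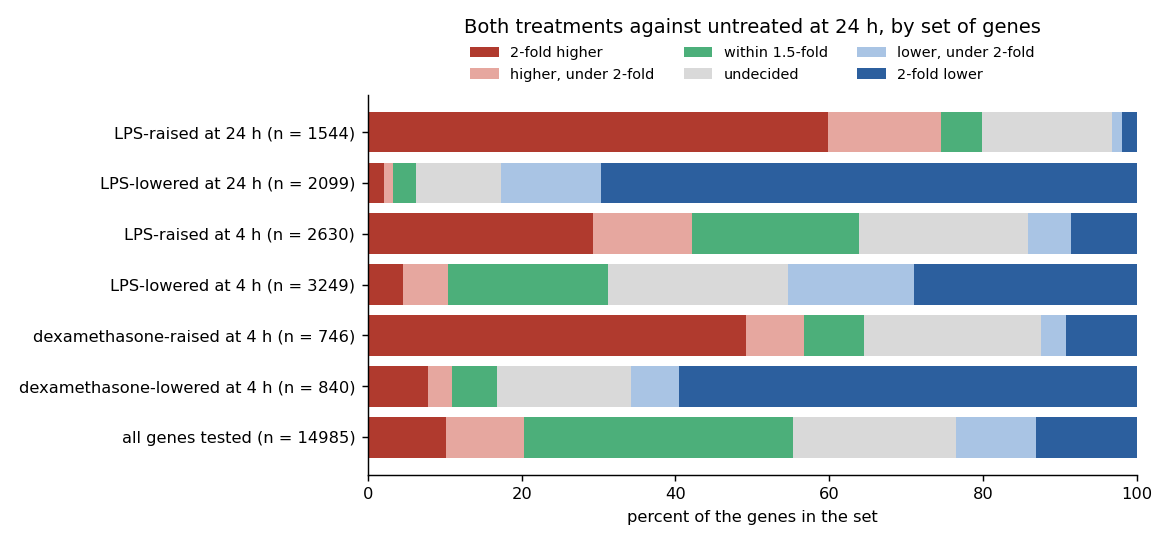
Share of genes (x axis, percent) in each class of both treatments against untreated cells at 24 h, for sets of genes chosen on other comparisons (y axis). The 24 h LPS sets share the untreated libraries with the comparison shown and the 4 h sets share none. Of the genes raised by LPS at 24 h, 59.8% were at least 2-fold higher and 5.38% within 1.5-fold, beside 10.2% and 34.9% of all genes.

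Among the 83 genes raised by LPS and back at baseline with both treatments was Tnf, described above. Il1rn, the IL-1 receptor antagonist, stood at 27.8, 20.6 and 24.6 CPM in untreated cells and 31, 28.7 and 25.2 CPM with both, with 117 ± 9.77 CPM under LPS (fold 1.17, 95% interval 0.965 to 1.41, equivalence adjusted p = 0.02). Mif, a cytokine that counteracts glucocorticoids, stood at 49.5 ± 5.23 and 49.8 ± 3.77 CPM, with 252 ± 10.2 CPM under LPS (fold 1.01, 0.9 to 1.13). Slc16a1, a monocarboxylate carrier for lactate, stood at 14.8 ± 2.57 and 15.7 ± 2.12 CPM, with 69.8 ± 9.02 CPM under LPS. Mcoln2, a lysosomal ion channel, stood at 37.2 ± 2.42 and 36.6 ± 0.273 CPM, and Gclm, the regulatory subunit of glutathione synthesis, at 32.8 ± 1.59 and 34.6 ± 3 CPM. Dexamethasone alone did not leave this group in 1 place: Il1rn was at 3.41 ± 0.348 CPM and Gclm at 93.8 ± 13.9 CPM.

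Interferon-stimulated genes, which code for antiviral effectors and their regulators, ranged from below to well above the untreated level. Of 39 tested, 28 were higher with both treatments and 7 lower, 15 and 5 of them at least 2-fold (median 0.74, against 2.21 with LPS alone, where all 39 were higher beside 29.7% of all genes, and -1.65 with dexamethasone alone). With both treatments 28.8% of all genes were higher and 30.3% lower. Irf7, the factor that amplifies interferon production, stood at 43, 63.7 and 41.7 CPM in untreated cells and 301, 316 and 311 CPM with both (2.64 ± 0.11, adjusted p = 7.92e-14). Gbp5, a guanylate-binding protein, stood at 5.48, 6.92 and 4.48 CPM and 33.7, 42.7 and 41.5 CPM (2.79 ± 0.15, adjusted p = 6.55e-14). The ubiquitin-like modifier Isg15 stood at 18.9 ± 3.84 and 51.2 ± 6.02 CPM (1.43 ± 0.13, adjusted p = 7.1e-09).

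The 7 lower members were Ifit3b, Iigp1, Ifit2, Ifit3, Rsad2, Mx1 and Cmpk2. Ifit2, an RNA-binding antiviral protein, fell from 67.4, 90.6 and 51.9 CPM to 21.2, 32.7 and 32.4 CPM (-1.29 ± 0.22, adjusted p = 6.94e-05), although LPS alone gave 322 ± 2.56 CPM. The ranges did not overlap, and dexamethasone alone gave 3.61 ± 0.189 CPM. Ifit3 fell from 48.7 ± 14.6 to 20.9 ± 3.7 CPM and Rsad2, viperin, from 42.8 ± 14.3 to 19.3 ± 2.76 CPM, both with higher levels under LPS alone (167 ± 3.06 and 198 ± 15.9 CPM). Ifit3 and Ifit3b are near copies, and the split of reads between them is uncertain. Ifit1 of the same family was higher, at 57.1 ± 8.11 against 26.9 ± 8.52 CPM. Cxcl10, an interferon-induced chemokine, fell from 6.93, 10.1 and 6.4 CPM to 2.98, 4.45 and 5.4 CPM (-0.88 ± 0.21, adjusted p = 0.00126), with 102 ± 3.39 CPM under LPS alone.

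Promoters of interferon-stimulated genes were compared for a sequence element that members on either side of baseline hold. A RefSeq window of 300 bases around the start site (build GRCm38.p6) was matched by symbol for 10290 of the 14985 genes and searched on both strands for the interferon response element, taken as GAAA, 2 bases of any kind and GAAA again. It was found in 421 of 10290 windows (4.09%), in 16 of the 30 windows of the interferon-stimulated list (53.3%) and in 6 of the 19 windows of genes raised by LPS and at least 2-fold below baseline with both (31.6%). Among genes raised by LPS, 47 of 626 windows of those still at least 2-fold higher (7.51%) and 7 of 68 of those back at baseline (10.3%) held it. The NF-kB motif, taken as GGG, 3 bases of any kind and TTCC, was in 7.55% of all windows, and among LPS-raised genes in 11.2% of the windows of those still higher, 5 of 68 of those back at baseline (7.35%) and 2 of 19 of those at least 2-fold lower (10.5%). The AP-1 motif, taken as TGA, 1 base of any kind and TCA, was in 6.58% of all windows and in 10.2%, 5.88% and 15.8% of the same 3 sets. The glucocorticoid receptor motif, taken as G, 1 base of any kind, ACA, 3 bases of any kind, TGT, 1 base of any kind and C, was in 35 of all windows (0.34%) and in 2, 1 and 0 windows of these sets. A match is a description of letters only. The 250 bases before the start site are shown 5′ to 3′ on the gene's strand, with matches to the interferon element (or its reverse complement) in capitals, for Ifit3 and Cxcl10, which were lower with both than in untreated cells, and for Isg15 and Gbp5, which were higher. All 4 hold the element, unlike the list, where 16 of the 30 windows held it. Cxcl10 belongs to the chemokine list and not to the interferon-stimulated list. The positions are chr19:34583279-34583528 (+ strand) for Ifit3, chr5:92348890-92349139 (- strand) for Cxcl10, chr4:156200819-156201068 (- strand) for Isg15 and chr3:142496684-142496933 (+ strand) for Gbp5.
Ifit3: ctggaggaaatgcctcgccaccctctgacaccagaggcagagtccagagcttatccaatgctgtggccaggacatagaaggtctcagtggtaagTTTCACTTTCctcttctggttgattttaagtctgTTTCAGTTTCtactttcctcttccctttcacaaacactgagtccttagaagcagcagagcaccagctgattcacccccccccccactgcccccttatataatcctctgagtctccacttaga
Cxcl10: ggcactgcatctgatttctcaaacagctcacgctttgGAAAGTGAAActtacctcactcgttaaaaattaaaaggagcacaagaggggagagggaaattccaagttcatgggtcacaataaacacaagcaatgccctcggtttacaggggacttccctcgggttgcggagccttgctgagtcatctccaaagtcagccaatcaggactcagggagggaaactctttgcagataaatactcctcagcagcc
Isg15: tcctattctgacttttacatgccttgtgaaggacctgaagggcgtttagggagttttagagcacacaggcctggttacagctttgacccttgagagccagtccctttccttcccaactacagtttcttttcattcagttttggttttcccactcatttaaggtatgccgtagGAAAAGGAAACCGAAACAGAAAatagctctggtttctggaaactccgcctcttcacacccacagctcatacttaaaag
Gbp5: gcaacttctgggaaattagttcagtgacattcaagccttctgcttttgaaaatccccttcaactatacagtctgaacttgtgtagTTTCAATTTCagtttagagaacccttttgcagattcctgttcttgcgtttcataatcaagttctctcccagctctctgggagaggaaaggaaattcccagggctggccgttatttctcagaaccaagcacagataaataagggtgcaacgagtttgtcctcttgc

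The matches lay -156 to -147 and -122 to -113 bases from the start site in Ifit3, -213 to -204 in Cxcl10 and -165 to -156 in Gbp5, and in Isg15 3 overlapping matches ran from -78 to -57. The levels of these 4 genes with both treatments lay on different sides of the untreated level, with log2 fold changes of -1.23 ± 0.23 for Ifit3, -0.88 ± 0.21 for Cxcl10, 1.43 ± 0.13 for Isg15 and 2.79 ± 0.15 for Gbp5.

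Some genes crossed baseline. Of the 29 genes raised at least 2-fold by LPS and at least 2-fold below untreated with both, the largest falls among those with a mean of at least 5 CPM were in Il21r, the IL-21 receptor (22.4 ± 3.1 to 2.37 ± 0.485 CPM, 46.9 ± 5.46 with LPS), Pf4, platelet factor 4 (25.4 ± 2.59 to 4.28 ± 1.54 CPM, 56.9 ± 12.5 with LPS), and Clec4n, the fungal receptor dectin-2 (10.5 ± 1.32 to 3.52 ± 0.396 CPM, 49.3 ± 12.8 with LPS). Clec4n was at 30.4 ± 3.28 CPM with dexamethasone alone, so either agent alone left it above baseline (adjusted p = 2.46e-11 for LPS and 4.64e-08 for dexamethasone) and both together below it (adjusted p = 1.1e-06). In the opposite sense, Sult1a1, a sulfotransferase, stood at 18.1, 21.6 and 18.1 CPM in untreated cells and 214, 189 and 180 CPM with both, while LPS alone gave 0.477 ± 0.115 CPM and dexamethasone alone 214 ± 15.2 CPM. Jaml, an adhesion molecule, went from 0.665 ± 0.383 to 128 ± 6.69 CPM (LPS 0.283 ± 0.12, dexamethasone 336 ± 17.4). Fzd4, a Wnt receptor, reached 64.7 ± 17.8 CPM from 0.726 ± 0.0522, with 0.17 ± 0.171 CPM under LPS. Dexamethasone alone gave 4.02 ± 0.779 CPM of Fzd4. For Jaml and Fzd4 the mean levels in untreated cells and under LPS were below 1 CPM, so their falls with LPS rest on few counts.

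Of genes lowered by LPS, a few lay at baseline with both treatments. Gpx3, a secreted glutathione peroxidase, stood at 60.8, 76.4 and 64.4 CPM in untreated cells and 80.3, 73.3 and 64 CPM with both, in overlapping ranges, with 4.26 ± 0.563 CPM under LPS and 475 ± 24.5 CPM under dexamethasone (fold 1.08, 95% interval 0.951 to 1.22). Rnase4, a secreted ribonuclease, was at 30.3 ± 3.57 and 34.9 ± 7.21 CPM (LPS 7.63 ± 1.86, dexamethasone 191 ± 17.8). Cnr2, the cannabinoid receptor of immune cells, was within the margin but called lower, at 44.4 ± 1.04 against 54.8 ± 0.612 CPM (adjusted p = 0.000263). Slc2a3, a glucose transporter, was at 14.6 ± 0.858 and 16 ± 1.55 CPM.

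Glucocorticoid receptor targets were mostly higher, with LPS present. Of 25 tested, 18 were higher and 6 lower (median 1.92), beside 28.8% and 30.3% of all genes. At least 2-fold away were 16 of the 18 and all 6 of the lower ones. The median was 1.31 with dexamethasone alone and 0.06 with LPS alone. That LPS median hides a split, since 12 of the 25 were higher with LPS alone and 12 lower. Fkbp5, a chaperone that dampens the receptor, stood at 16.3, 11.1 and 13.3 CPM in untreated cells and 812, 797 and 795 CPM with both (5.89 ± 0.07, adjusted p = 6.23e-37), beside 854 ± 36.3 CPM with dexamethasone alone. Tsc22d3, the glucocorticoid-induced leucine zipper, stood at 58.6, 66.6 and 65.2 CPM and 380, 370 and 368 CPM (2.55 ± 0.06, adjusted p = 1.09e-28), beside 870 ± 26.2 CPM with dexamethasone and 16.4 ± 2.35 CPM with LPS. Dusp1, a phosphatase that switches off MAP kinases, stood at 352 ± 43 against 30.6 ± 1.41 CPM, with 68.6 ± 6.1 CPM under LPS and 108 ± 1.02 CPM under dexamethasone. Cd163, the haptoglobin-haemoglobin receptor, rose from 36.8 ± 1.15 to 168 ± 0.321 CPM and Mertk, a receptor for apoptotic cells, from 75.1 ± 10.1 to 278 ± 10.4 CPM. Below baseline were Anxa1, annexin A1 (1343 ± 186 to 165 ± 8.87 CPM), and Angptl4, a lipase inhibitor, with 516 counts in the untreated group and 2 with both. The receptor itself, Nr3c1, was at 175 ± 11.1 against 118 ± 5.99 CPM (0.57 ± 0.06, adjusted p = 3.38e-11), and Tlr4 at 81.5 ± 7.89 against 112 ± 10.2 CPM (-0.46 ± 0.07, adjusted p = 2.32e-07).

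Glycolysis genes were mostly higher than in untreated cells. Of 25 tested, 18 were higher with both treatments, 9 of them at least 2-fold, 3 were lower (5 with scaling by totals) and 6 lay within 1.5-fold (median 0.87, against 1.74 with LPS alone and -0.52 with dexamethasone alone). Among all genes 28.8% were higher, 30.3% lower and 34.9% within 1.5-fold. Ldha, lactate dehydrogenase A, stood at 422, 367 and 417 CPM in untreated cells and 831, 741 and 722 CPM with both (0.93 ± 0.06, adjusted p = 5.55e-17), with 1916 ± 58.8 CPM under LPS. Pfkfb3, whose product drives glycolytic flux, stood at 1783 ± 161 CPM with both and 1214 ± 86.5 CPM with LPS, while dexamethasone alone gave 130 ± 5.11 CPM and untreated cells held 41.1 ± 4.21 CPM. Slc2a1, the main glucose transporter, was 2.08-fold higher (95% interval 1.87 to 2.32) and Pkm, pyruvate kinase, within 1.5-fold (1.23, 1.14 to 1.33). Hif1a, the hypoxia-inducible factor that raises glycolysis genes, was at 143 ± 12.2 CPM against 72.9 ± 3.72 in untreated cells and 752 ± 31.2 with LPS. The hypoxia response list, which holds Hif1a itself, was not uniformly higher. Of 17 genes 6 were higher, Hif1a among them, and 8 lower (median -0.22, 1.46 with LPS alone), beside 28.8% and 30.3% of all genes. Vegfa, the vascular growth factor, fell from 99 ± 7.43 to 8.24 ± 1.39 CPM, with 138 ± 3.47 CPM under LPS.

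Many mitochondrial enzyme genes were higher with both treatments, most of them by less than 2-fold. Of 35 genes of the pyruvate dehydrogenase and citrate cycle list 29 were higher, 12 of them at least 2-fold, 3 were lower and 10 lay within 1.5-fold (median 0.70, against 0.44 with LPS alone and -0.01 with dexamethasone alone). With scaling by totals 25 were higher and 4 lower. Over all genes 28.8% were higher, 30.3% lower and 34.9% within 1.5-fold. Idh3a, isocitrate dehydrogenase 3, was 3.04-fold higher (2.74 to 3.37) and Pdha1, a subunit of pyruvate dehydrogenase, 2.22-fold (2.05 to 2.41). Sdha, succinate dehydrogenase, stood at 227, 217 and 216 CPM and 458, 446 and 458 CPM (1.05 ± 0.05, adjusted p = 7.81e-21), with 278 ± 6 CPM under LPS. The lower members were the regulators Pdp1 and Pdk1, a phosphatase and a kinase of pyruvate dehydrogenase, and Suclg2, a subunit of succinyl-CoA ligase.

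Of the 70 nuclear-encoded respiratory chain subunits 68 were higher, 20 of them at least 2-fold, and none lower, or 1 lower with scaling by totals (median 0.85, against 0.52 with LPS alone and -0.12 with dexamethasone alone). Cyc1, cytochrome c1 of complex III, went from 56.6 ± 2.65 to 165 ± 12.7 CPM and Cox5a, of complex IV, from 53.8 ± 2.08 to 149 ± 1.34 CPM. Their summed level was 5160 to 5460 CPM in untreated cells and 10000 to 10600 CPM with both treatments. The 13 genes encoded by mitochondrial DNA did not move in this way: 5 were higher, 3 lower and 7 within 1.5-fold (median 0.27). Of all genes 28.8% were higher, 30.3% lower and 34.9% within 1.5-fold. With scaling by library totals, 2 of the 13 were higher and 5 lower.

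**Figure D5:**
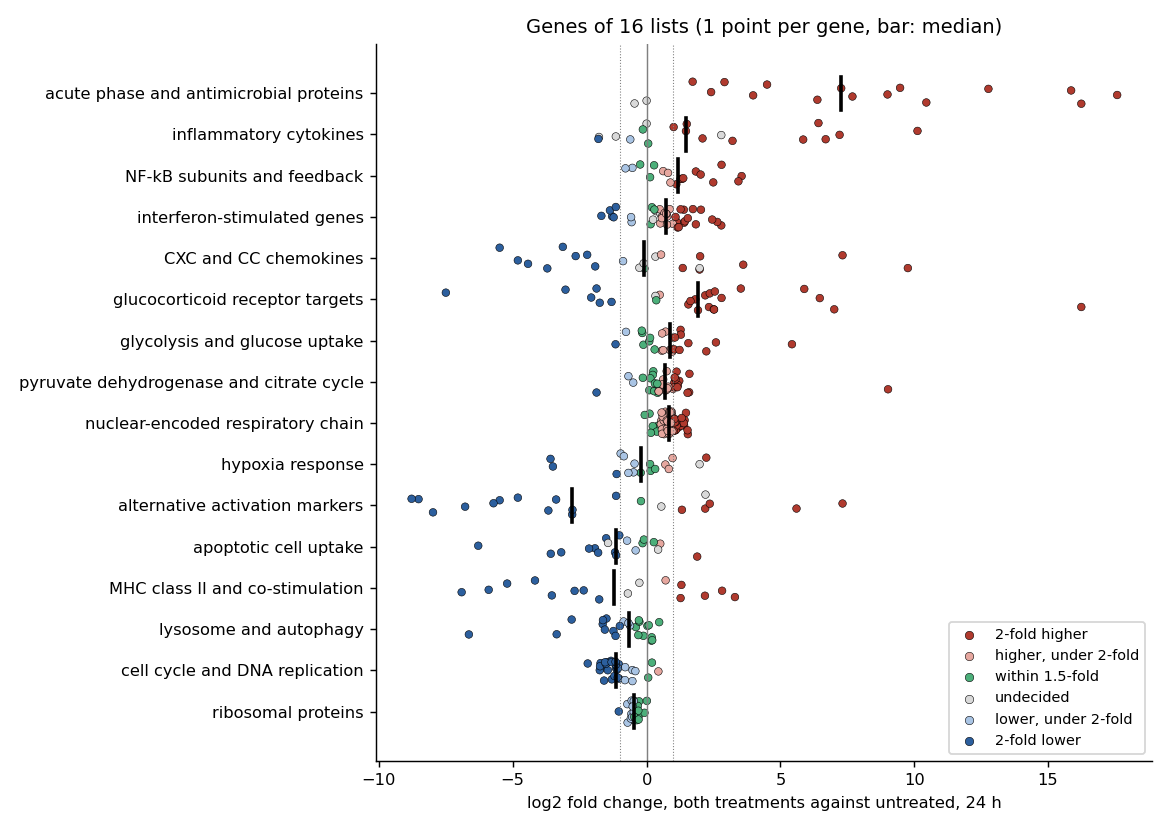
Log2 fold change of both treatments against untreated cells at 24 h (x axis) for the tested genes of 16 lists (y axis), 1 point per gene coloured by call, with a bar at the median and dotted lines at 2-fold. Nearly all respiratory chain genes lie to the right of 0 and nearly all cell cycle and ribosomal protein genes to the left, while chemokines lie on both sides.

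The largest falls took transcripts of untreated macrophages down to few or no counts. Dcstamp, which macrophages need to fuse into giant cells, stood at 52.9, 24.7 and 48.1 CPM in untreated cells and had no count in any library with both treatments, at least 790-fold lower. Gprc5c, an orphan receptor, likewise had no count with both, at least 514-fold lower than its 26.7 ± 1.61 CPM in untreated cells, and none with LPS alone. Mmp12, macrophage elastase, fell from 897, 642 and 913 CPM to 2.25, 1.29 and 2.02 CPM (-8.78 ± 0.65, adjusted p = 8.06e-12), with 47.1 ± 25.4 CPM under LPS and 47.5 ± 11.4 CPM under dexamethasone. Cd83, a surface protein of antigen-presenting cells, fell from 144 ± 3.85 to 0.243 ± 0.132 CPM, beside 1.93 ± 0.704 CPM with LPS and 23.5 ± 1.53 CPM with dexamethasone. Egr2, a transcription factor of alternative activation, had 3544 counts in the untreated group and 3 with both, a ratio of 0.00103 (95% interval 0.000212 to 0.003, counting error only).

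Markers of alternative activation were 12 of 20 lower and 5 higher (median -2.78, or -2.54 with few-count genes at their bounds). Among all genes 30.3% were lower and 28.8% higher. Pparg, the lipid-sensing nuclear receptor, fell from 97.9 ± 8.93 to 1.85 ± 0.142 CPM and Mrc1, the mannose receptor, from 564 ± 29.7 to 54.1 ± 10.5 CPM, although dexamethasone alone gave 834 ± 36.6 CPM of Mrc1. Among the higher ones was Chil3, a chitinase-like lectin, at 59.7 ± 8.32 against 1.23 ± 0.204 CPM (dexamethasone alone 126 ± 11.3, LPS alone 1.13 ± 0.426). Of 19 genes of apoptotic cell uptake 12 were lower and 3 higher, or 14 and 2 with scaling by totals (median -1.14). Cd36, a scavenger receptor for oxidised lipids and dying cells, fell from 1121, 851 and 1087 CPM to 9.16, 15.2 and 14.5 CPM (-6.29 ± 0.17, adjusted p = 7.6e-16), with 172 ± 15.1 CPM under LPS and 232 ± 10.2 CPM under dexamethasone. Gas6, a bridging ligand of Mertk, fell from 499 ± 50.8 to 41.7 ± 1.34 CPM.

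Transcripts of several MHC class II genes, whose products present antigen to CD4 T cells, fell far below baseline. Ciita, the master regulator of MHC class II, stood at 93.7, 120 and 88.3 CPM in untreated cells and 0.89, 0.569 and 1.04 CPM with both (-6.91 ± 0.29, adjusted p = 1.03e-23). Either agent alone left it between these groups, LPS at 8.01 ± 0.262 and dexamethasone at 9.38 ± 2.04 CPM. H2-Aa and H2-Eb1, which code for class II chains, fell from 771 ± 75.5 to 20.9 ± 2.44 CPM and from 480 ± 50.1 to 8.01 ± 0.404 CPM. In the whole list of class II and co-stimulation 8 of 16 were lower and 6 higher (median -1.24), the higher ones being Cd274, Cd40, Cd80 and Icosl, which code for co-stimulatory or checkpoint proteins, and H2-Oa and H2-Ob, accessory chains of class II loading. Lysosome and autophagy genes were 17 of 24 lower and 4 higher, or 19 and 1 with scaling by totals (median -0.65). Of the 24, 10 were at least 2-fold lower and 11 lay within 1.5-fold, beside 13.1% and 34.9% of all genes. Both lists stand beside 28.8% higher and 30.3% lower of all genes. Atp6v0d2, a proton pump subunit, fell from 309 ± 27.5 to 3.08 ± 0.693 CPM.

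Cell cycle genes were mostly lower, 27 of 30 lower, 22 of them at least 2-fold, and 2 higher, or none higher with scaling by totals (median -1.16, against -2.52 with LPS alone and -2.15 with dexamethasone alone). Pcna, the replication clamp, fell from 352 ± 39 to 76.4 ± 1.24 CPM and Mcm2, of the replicative helicase, from 38.8 ± 2.44 to 11.5 ± 0.117 CPM. Mki67, the proliferation antigen, did not follow them: it stood at 109, 111 and 101 CPM in untreated cells and 113, 112 and 109 CPM with both, in overlapping ranges and within 1.5-fold (fold 1.04, 0.913 to 1.19), with 73.5 ± 9.74 CPM under LPS and 21.6 ± 2.2 CPM under dexamethasone. Ccnd1, cyclin D1, which is outside that list and was chosen after its values were seen, fell from 121 ± 9.45 to 1.4 ± 0.515 CPM. Ribosomal protein genes fell by little but nearly all, 28 of 30 lower and none higher (median -0.46). Only 1 was at least 2-fold lower, and 17 lay within 1.5-fold by the equivalence test. Both lists stand beside 28.8% higher, 30.3% lower and 34.9% within 1.5-fold of all genes.

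A small group of genes was at least 2-fold away from baseline with both treatments while LPS alone and dexamethasone alone each left it within 1.5-fold by the equivalence test, as they did 34.2% and 44.8% of all genes. There were 27 such genes on the higher side and 19 on the lower side. The 5 largest rises were in Pde12, a mitochondrial phosphodiesterase (19.6 ± 2.31 to 65.3 ± 1.28 CPM, with 17.7 ± 2.52 under LPS and 26 ± 0.236 under dexamethasone), Ergic1, Pafah2, Fam53b and Abhd17b. The 5 largest falls were in Il15, Arhgap10, Gstm1, St8sia4 and Cat. Gstm1, a glutathione transferase, fell from 128 ± 3.94 to 43.9 ± 2.14 CPM and Cat, catalase, from 299 ± 29.1 to 115 ± 3.89 CPM, both detoxifying enzymes, with LPS alone at 147 ± 15.9 and 331 ± 53.3 CPM and dexamethasone alone at 143 ± 6.21 and 352 ± 25.2 CPM. The interaction of the 2 agents was not tested here.

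Sets chosen at 4 h share no library with the 24 h comparison. Of 2630 genes raised at least 2-fold by LPS at 4 h (17.6% of those tested), 771 (29.3%) were at least 2-fold above untreated with both treatments at 24 h, 572 (21.7%) within 1.5-fold and 226 (8.59%) at least 2-fold lower, beside 10.2%, 34.9% and 13.1% of all genes tested. Of 746 genes raised by dexamethasone at 4 h (4.98%), 367 (49.2%) were at least 2-fold higher with both at 24 h and 69 (9.25%) at least 2-fold lower. Of 840 lowered by dexamethasone at 4 h (5.61%), 500 (59.5%) were at least 2-fold lower. Of 2397 genes that both treatments raised at 4 h (16%), 934 (39%) were at least 2-fold higher at 24 h and 413 (17.2%) within 1.5-fold, and of 2877 lowered at 4 h (19.2%), 1115 (38.8%) were at least 2-fold lower and 435 (15.1%) within 1.5-fold. The effect of both treatments differed between 24 h and 4 h for 8555 genes (57.1%), 4261 with a higher and 4294 with a lower log2 fold change at 24 h.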

How the data were processed

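The authors deposited 1 table of whole-number read counts per gene and library, not scaled, which featureCounts 2.0.0 made from read pairs without regard to strand over the exons of GENCODE M29, leaving out reads that match several places or several genes, per the file headers. STAR is named for the alignment, per the submitters' processing notes, which list GRCm38 and mm10, while GENCODE M29 annotates another build, so the build is uncertain and no gene position from the table is printed; promoter positions are those of RefSeq. Symbols came from the given gene name table and named 52081 of the 55357 identifiers.

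From these counts, 14985 genes that passed filterByExpr in edgeR 4.0.16 (R 4.3.3) entered 1 fit of all 24 libraries with a mean per group, TMM scaling and a robust quasi-likelihood F test, two-sided, with 16 residual degrees of freedom. The threshold was an adjusted p of 0.05, and away from baseline also asks for 2-fold. The equivalence test is a pair of one-sided tests against 1.5-fold from the same fit, adjusted over all genes. Genes with no count in a group get a bound against 3 counts over the group. No covariate is given by the labels. The totals of the 24 libraries run from 18326206 to 27908164 counts, and 1 count is worth 0.0391 to 0.0524 CPM in the 6 libraries. The tests were tested on simulated data. Replicates differed by more than counting noise (chi-square per gene 3.1 to 7.27).

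Named genes are a panel of 36 genes, the 10 largest rises and falls with at least 5 CPM, the 8 LPS-raised and 8 LPS-lowered genes back at baseline with the largest LPS change, the 5 largest of each crossing or combination group, and up to 2 rises and 2 falls per gene list. Genes outside these groups appear as members of the 36 gene lists or as examples chosen after their values were seen. The comparison, the panel and the lists were chosen with earlier results of these data known. Alternatives were other scalings and filters, DESeq2 1.42.0, fits on fewer libraries, a replicate block, other margins and LPS sets, and leaving out single 24 h libraries. Those left out were libraries with both treatments, without treatment and, for the LPS sets, with LPS alone.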

Additional observations from a re-analysis of the deposited data

Results flagged for a closer look

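The effect of both treatments against untreated cells differed between 24 h and 4 h for 10 of the 12 genes examined for it, beside 57.1% of all genes. Each was tested by the difference of the 2 log2 fold changes in edgeR's quasi-likelihood fit. The largest difference was in Cxcl10, by -11 (SE 0.29, adjusted p = 1.12e-17), which stood at 3266 ± 249.2 CPM with both at 4 h against 2.974 ± 1.053 in untreated cells, and below the untreated level at 24 h. Ccl2 differed by -7.15 (SE 0.63, adjusted p = 1.75e-10), from 104.4 ± 9.123 against 15.83 ± 1.109 CPM at 4 h to a level below baseline. Tnf differed by -5.94 (SE 0.11, adjusted p = 2.91e-30), from 1991 ± 42.06 against 35.61 ± 1.589 CPM at 4 h to the baseline at 24 h. Il1b differed by -3.91 (SE 0.27, adjusted p = 4.09e-12) and was at least 2-fold higher at both times.

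Saa3 and Fkbp5 lay further above baseline at 24 h than at 4 h, by 4.44 (adjusted p = 1.95e-06) and 2.55 (adjusted p = 5.07e-23). Smaller differences were found in Hif1a (-0.45, adjusted p = 2.8e-05), Ldha (0.31, adjusted p = 0.000991), Tsc22d3 (-0.3, adjusted p = 0.00334) and Mki67 (-0.51, adjusted p = 0.00157), the last of which was 0.57 log2 units above untreated cells at 4 h. Il6 and Nos2 did not pass the test of the difference (adjusted p = 0.873 and 0.977), both with no count in untreated cells at 24 h, and stood at 464.5 ± 52.73 and 446 ± 20.39 CPM with both at 4 h.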

How the results depend on the processing

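Each of the 6 libraries of the comparison was left out in turn. The fits gave 4048 to 4119 genes higher and 4234 to 4304 lower. At least 2-fold higher were 1486 to 1512, at least 2-fold lower 1879 to 1929, and within 1.5-fold 4828 to 4915. With the LPS libraries of 24 h also left out in turn, 68 to 86 LPS-raised genes were back at baseline and 906 to 928 still 2-fold higher. For LPS-lowered genes the counts were 57 to 65 and 1420 to 1450. Genes that differ between the times numbered 8242 to 8327 over the 6 fits, in which no 4 h library was left out. No value reversed. The count within the margin was 1585 with a narrower margin and 8438 with a margin of 2-fold. LPS-raised genes back at baseline numbered 11 with the narrower margin, 270 at 2-fold, 6 among genes raised at least 4-fold and 572 among those raised at 4 h; LPS-lowered genes back at baseline numbered 11, 239, 6 and 676. Still 2-fold higher were 582 genes with the 4-fold rule, and still 2-fold lower 897 with the 4-fold rule and 943 with the 4 h set. The genes raised by LPS at 4 h and within the margin at 24 h were 275 with scaling by totals, 169 with the narrower margin and 1028 at 2-fold. Some gene lists given without a value for scaling by totals also changed with it, such as Nrf2 genes to 4 higher and ribosomal proteins to 30 lower. A filter of 5 CPM in 3 libraries left 1300 genes at least 2-fold lower, since fewer genes are tested. Of 1581 further values over 112 results, 1524 stayed the same. Another 55, all counts, moved by over 1.5 times, and 2, both for Tnf, passed the threshold. A count was taken as the same within 1.5 times of its main value. A panel gene was the same if it kept its call and, where called, its direction. A replicate block gave 4305 genes higher and 4521 lower. Under it no count compared moved by over 1.5 times and no panel gene changed its call. Same-numbered libraries of the 2 groups had correlations of deviations of -0.03, -0.004 and -0.009. These values show no pairing by replicate number, but with 3 libraries per group they cannot exclude a shared mouse or culture. Genes with under about 3 counts in a group have no usable fold.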

Other observations

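Several other gene groups were measured, to be read beside the 28.8% of all genes that were higher and the 30.3% that were lower. Of 16 circadian clock genes 7 were higher and 8 lower with both treatments at 24 h. Cry1, a repressor of the clock, went from 8.75 ± 1.58 to 46.4 ± 2.01 CPM and Bhlhe40, another repressor, from 40.7 ± 6.88 to 4.39 ± 0.719 CPM. Of 14 prostaglandin and leukotriene genes 6 were higher and 6 lower: Ptges, the inducible prostaglandin E synthase, rose from 1.01 ± 0.107 to 205 ± 32.6 CPM, while Hpgd, which degrades prostaglandins, fell from 164 ± 37.1 to 1.56 ± 0.685 CPM. Cholesterol synthesis genes were 12 of 22 higher and 1 lower, or none lower with DESeq2 size factors, with Mvd, mevalonate decarboxylase, at 96.4 ± 3.31 against 17.5 ± 2.46 CPM. Of 16 genes of MHC class I and peptide loading 14 were higher and 1 lower (median 0.60), or 2 lower with scaling by totals. Toll-like receptors and adaptors were 13 of 21 higher and 5 lower, or 8 and 6 with scaling by totals. Of the 21, 10 lay within 1.5-fold. Irak3, an inhibitor of Toll-like receptor signalling, rose from 26.6 ± 2.99 to 292 ± 7.75 CPM.

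Single genes of lipid handling and of the stress response lay far from baseline, while the median of their lists did not. Lpl, lipoprotein lipase, fell from 7382 ± 595 to 548 ± 22.4 CPM and Plin2, a lipid droplet coat protein, from 693 ± 26.6 to 154 ± 1.27 CPM, while Dgat2, a triglyceride synthase, rose from 0.372 ± 0.0677 to 94.8 ± 18.5 CPM. In the list of fatty acid oxidation and lipid storage 7 of 23 were higher, 8 lower and 13 within 1.5-fold (median 0.05), beside 28.8% higher, 30.3% lower and 34.9% within 1.5-fold of all genes. With scaling by totals 6 were higher and 11 lower. Of 16 genes of the unfolded protein and integrated stress response 9 were higher and 5 lower, 3 of these 14 at least 2-fold (median 0.30), and Atf3, a stress-induced factor, fell from 464 ± 43.6 to 20.9 ± 2.19 CPM. Of 14 genes of the Nrf2 response 6 were higher and 6 lower. Of 12 genes of arginine, nitric oxide and tetrahydrobiopterin 6 were higher and 3 lower. The counts of all these lists stand beside 28.8% higher and 30.3% lower of all genes. Anti-inflammatory mediators were 6 of 12 higher and 4 lower, among them Socs3, a suppressor of cytokine signalling, up from 3.39 ± 0.759 to 492 ± 8.87 CPM, and Il10, down from 4.83 ± 0.768 to 1.78 ± 0.724 CPM. Immediate early and heat shock genes were 3 of 13 higher and 6 lower, with summed levels of 448 to 565 CPM in untreated cells and 368 to 401 CPM with both; under scaling by totals none was higher and 7 were lower.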
